A study of Homo sapiens with 30 samples.

Results

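The mitosis genes described here are 48 human genes whose products carry out or govern cell division, taken as a fixed list of symbols. The list was chosen with earlier results of these data known, so its shares of calls are not independent of that choice. Each symbol was matched to its Ensembl identifier, and all 48 were found among the 60675 gene rows of the deposited count table. All 48 passed the filter on low counts and were tested with 17701 genes in total, so every count of members has a base of 48. The cells were A549, a human lung adenocarcinoma line, and all groups were harvested 24 h after treatment. The extracts were ethanol extracts of herbal formulas given at 20, 100 and 500 µg/mL, called the low, medium and high dose. Sibjeondaebo-tang and Palmul-tang had 3 libraries at each dose, Samul-tang had 2 (replicates 2 and 3) and Sagunja-tang had 1. The vehicle group had 3 libraries, with DMSO at 0.1% per the sample labels and at 2% per the series text. Palmul-tang joins the herbs of Samul-tang with those of Sagunja-tang, and Sibjeondaebo-tang adds further herbs to Palmul-tang. All results come from this 1 cell line.

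Mitosis starts when the kinase CDK1, bound to cyclin B, is switched on, and Polo-like and Aurora kinases then build the spindle and attach chromosomes to it. The spindle checkpoint holds the anaphase-promoting complex inactive until each chromosome is attached, after which CDC20 activates the complex and securin and cyclin B are destroyed. In dividing cells the transcripts of these genes accumulate late in the cell cycle. They are held down before that by the DREAM repressor complex and driven by MYBL2 and FOXM1, through an element called the cell cycle genes homology region (CHR) and through CCAAT boxes bound by NF-Y. In bulk RNA from a cell line, more cells in division and more of a transcript in each dividing cell cannot be told apart.

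To show what these elements look like, the bases upstream of 5 start sites that hold both are given, for 3 members that were higher and 2 that were lower at the high dose of Sibjeondaebo-tang. The sequences are from RefSeq (GRCh38.p14), read 5′ to 3′ on the gene's own strand and ending at the base before the start site. Capitals mark the CHR form TTTGAA and the CCAAT box on either strand, so that TTCAAA and ATTGG are the same motifs read on the other strand. CDC20 is at chr1:43358861-43358980 (plus strand), PLK1 at chr16:23678789-23678888 (plus), CCNB2 at chr15:59105016-59105145 (plus), MKI67 at chr10:128126424-128126533 (minus) and ASPM at chr1:197146670-197146809 (minus).
CDC20: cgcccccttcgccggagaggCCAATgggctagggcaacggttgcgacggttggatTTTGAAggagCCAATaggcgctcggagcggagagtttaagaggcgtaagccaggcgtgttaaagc
PLK1: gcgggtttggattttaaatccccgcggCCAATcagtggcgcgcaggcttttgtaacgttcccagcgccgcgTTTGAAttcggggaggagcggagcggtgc
CCNB2: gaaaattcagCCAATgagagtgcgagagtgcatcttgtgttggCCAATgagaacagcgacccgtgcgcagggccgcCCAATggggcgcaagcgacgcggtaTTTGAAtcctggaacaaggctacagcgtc
MKI67: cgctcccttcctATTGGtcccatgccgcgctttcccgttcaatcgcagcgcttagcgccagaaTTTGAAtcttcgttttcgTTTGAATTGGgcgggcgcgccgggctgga
ASPM: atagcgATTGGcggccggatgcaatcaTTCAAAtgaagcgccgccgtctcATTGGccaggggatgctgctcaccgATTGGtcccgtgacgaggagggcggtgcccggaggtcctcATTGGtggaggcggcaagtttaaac
These 5 were picked for holding both motifs and do not stand for the other members. In the stretch shown CCNB2 has 3 CCAAT boxes, all ahead of its CHR form, with 1 more further upstream in the window. ASPM has 4, of which 1 is ahead of its CHR form and 3 follow it. In MKI67 one CHR form overlaps a CCAAT box.

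A promoter window, from 250 bases before to 50 bases after the start site, was held for 41 of the 48 members. BIRC5, FOXM1, AURKA, TPX2, UBE2C, TTK and BUB3 are named only. On either strand, TTTGAA or TTCGAA was present in 32 of the 41 (78%), against 19.5% of 27305 genes with a window and 15.7% of the 12035 of them that were tested. CCAAT was present in 30 members (73.2%), against 39.7% of all genes and 42.6% of tested genes. Both were present in 24 members (58.5%), against 7.85% of all genes and 6.52% of tested genes. The E2F forms TTTGGCGC and TTTCCCGC were present in 2 members (4.88%), against 2.75% of all genes and 4.25% of tested genes. Of the 9 members with no CHR form, AURKB, CCNA2, CCNB1, KIF20A, NCAPH and PTTG1 held CCAAT, and CENPE, CKAP2 and KIF2C held neither. Of the members higher at the high dose of Sibjeondaebo-tang, 19 of 27 with a window held a CHR form, as did 5 of the 6 that were lower and 8 of the 8 that were not called. A match is a stretch of letters and was not tested as a site.

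Levels are given as CPM, a gene's count relative to the TMM-scaled size of its library, library by library in the order of the replicate numbers. Library totals ran from 23986637 to 35159898 counts, and the coefficient of variation of a member within a group had a median of 3.69%. Over all genes the 3 high-dose libraries of Sibjeondaebo-tang stood apart on the first principal component (14.67% of the variance) and the 3 vehicle libraries on the second (10.03%). The vehicle libraries also carry sample codes that begin differently from those of the extracts, and what the codes mark is not stated, while the titles place all 30 libraries in 1 batch, BatchE. Of 9 epithelial markers 6 were above 1 CPM in every library (KRT8 from 3260 to 4390 CPM), while SFTPC, SFTPB and NKX2-1, which mark alveolar type cells, stayed at or under 1.29 CPM. Epithelial markers summed to 8380 to 10400 CPM over the extract libraries and 11000 to 11500 CPM in vehicle, without overlap. Leukocyte markers summed to 2.14 to 3.48 CPM over the extract libraries and 2.88 to 3.21 CPM in vehicle. Nearly all of it was CD14 (1.93 to 3.17 CPM), with CD3E at a median of 0. Fibroblast markers summed to 14.1 to 21.1 CPM in extracts and 15.6 to 16 CPM in vehicle. COL3A1 had 6.5 to 11.2 CPM, DCN 4.21 to 7.07 CPM, COL1A1 1.08 to 2.5 CPM and LUM 0.906 to 1.83 CPM, with COL1A2 near 0. Endothelial markers summed to 16.7 to 22.1 CPM in extracts and 18.3 to 19.8 CPM in vehicle, nearly all of it KDR, with VWF and CDH5 at a median of 0.

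The mitosis genes as a set stood higher at each step of dose in every formula. Their summed level was 3238 ± 141 CPM at the low Sibjeondaebo-tang dose, 3489 ± 101 CPM at the medium dose and 3589 ± 62.4 CPM at the high dose (SD, 3 libraries each). In Palmul-tang the sums were 3319 ± 83.2, 3547 ± 112 and 3831 ± 175 CPM from the low to the high dose. Samul-tang libraries summed to 3382 and 3444 CPM at the low dose, 3566 and 3609 CPM at the medium dose and 3810 and 3803 CPM at the high dose. The single libraries of Sagunja-tang summed to 3332, 3426 and 3790 CPM in the same order, and the vehicle libraries to 3509, 3472 and 3635 CPM. In each formula with replicates no high-dose sum overlapped a low-dose sum. Neighbouring doses did overlap in Sibjeondaebo-tang, where high replicate 3 (3517 CPM) was under medium replicate 1 (3593 CPM). Its medium replicate 3 (3391 CPM) was under low replicate 1 (3399 CPM). In Palmul-tang high replicate 3 (3657 CPM) was under medium replicate 1 (3675 CPM), while low and medium did not overlap. Neighbouring doses of Samul-tang did not overlap. The group means of single members lay in the order low, medium, high for 45 of 48 members in Palmul-tang, 39 in Sibjeondaebo-tang, 35 in Samul-tang and 29 in Sagunja-tang. Among all tested genes with this order the shares were 23.1%, 27.7%, 21.2% and 20.4% for the same formulas.

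**Figure D1:**
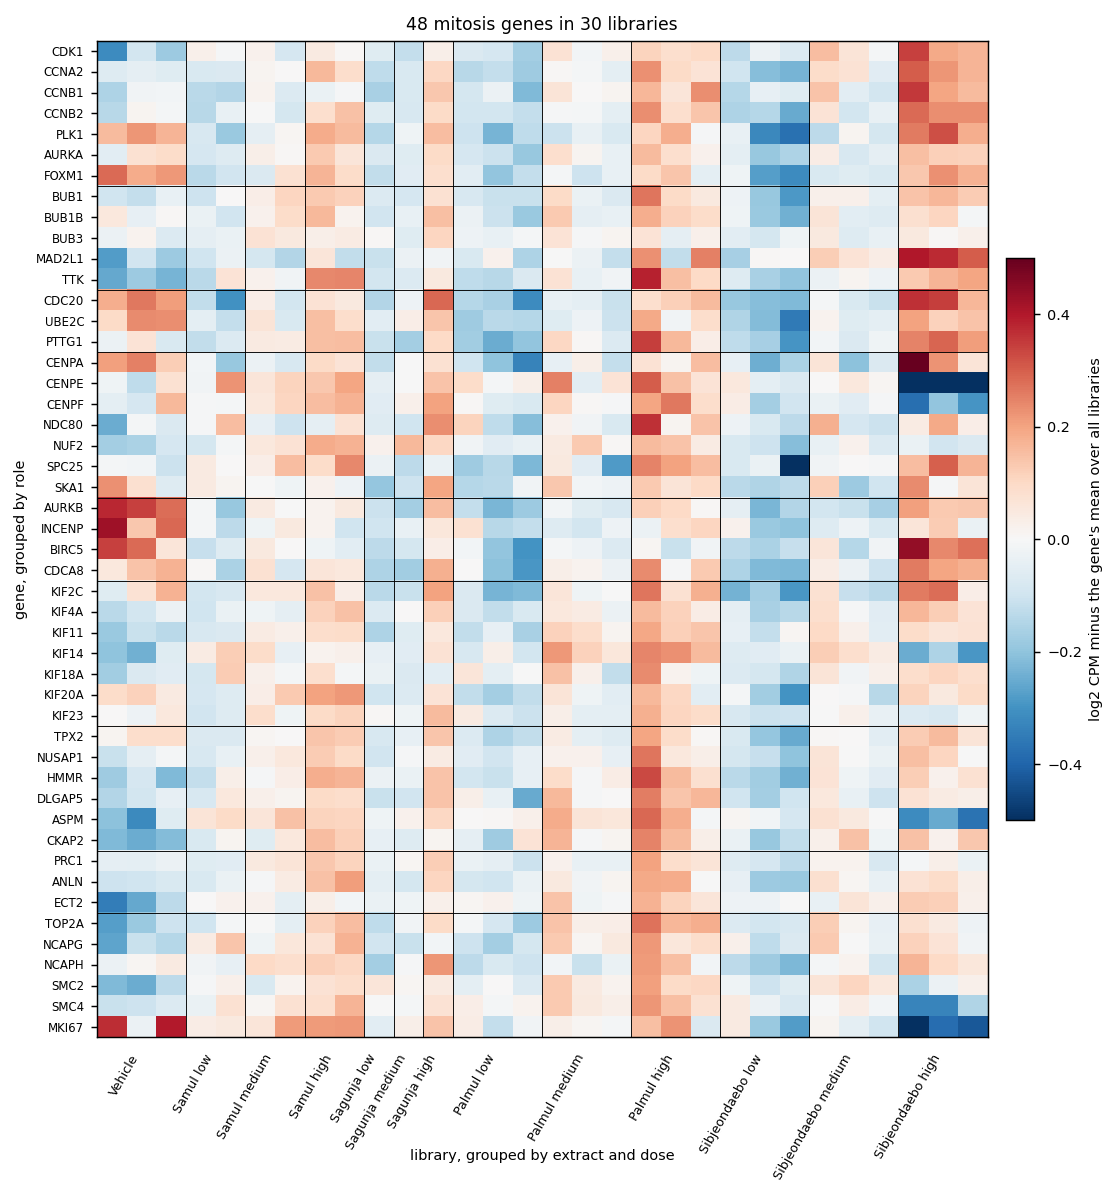
Level of each of the 48 mitosis genes (rows, grouped by role) in each of the 30 libraries (columns, grouped by extract and dose), as the log2 difference from the gene's mean over all libraries. Colours are capped at the ends of the scale. They run towards the high end with dose for most members in all 4 formulas, and CENPE, CENPF, MKI67, ASPM, SMC4 and KIF14 turn the other way at the high dose of Sibjeondaebo-tang.

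At the high dose of Sibjeondaebo-tang, 33 of the 48 mitosis genes were higher than at its low dose, 6 were lower and 9 did not pass the test, where 18.5% of all tested genes were higher and 19.9% lower. The members' median change was 0.237 on the log2 scale, against -0.01 for all genes. The highest rises were those of CDC20, PLK1, BIRC5 and PTTG1, and the deepest falls those of CENPE, MKI67 and ASPM. In Palmul-tang 32 members were higher at the high dose, 0 were lower and 16 did not pass, where 1.46% of all genes were higher and 2.02% lower. The median change there was 0.219, against 0.004 for all genes, and all 48 members had a positive change. High- and low-dose libraries did not overlap for 38 higher and 6 lower members in Sibjeondaebo-tang, where 4015 and 4369 of all 17701 genes did not. In Palmul-tang the counts without overlap were 37 and 0 members, against 1504 and 1587 of all genes. Changes are log2 ratios of the high over the low dose from edgeR's quasi-likelihood model, given with their SE and a p-value adjusted over all 17701 genes. Leaving out Palmul-tang high replicate 1 left 12 higher calls, and leaving out low replicate 2 or low replicate 3 left 20 or 18, while with the replicate number as a block there were 35. Higher calls over all 17701 genes came to 124, 140, 123 and 320 in these fits, in the same order, against 258. The sum over the members was highest in replicate 1 and lowest in replicate 3 in all 6 groups of Sibjeondaebo-tang and Palmul-tang, and the part of that order in the calls was not tested beyond the block. In Sibjeondaebo-tang the block gave 34 higher and 6 lower calls, and without high replicate 1 the lower calls came to 3. Over all genes the block gave 3297 and 3568, and without high replicate 1 the lower calls came to 2620, against 3529.

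**Figure D2:**
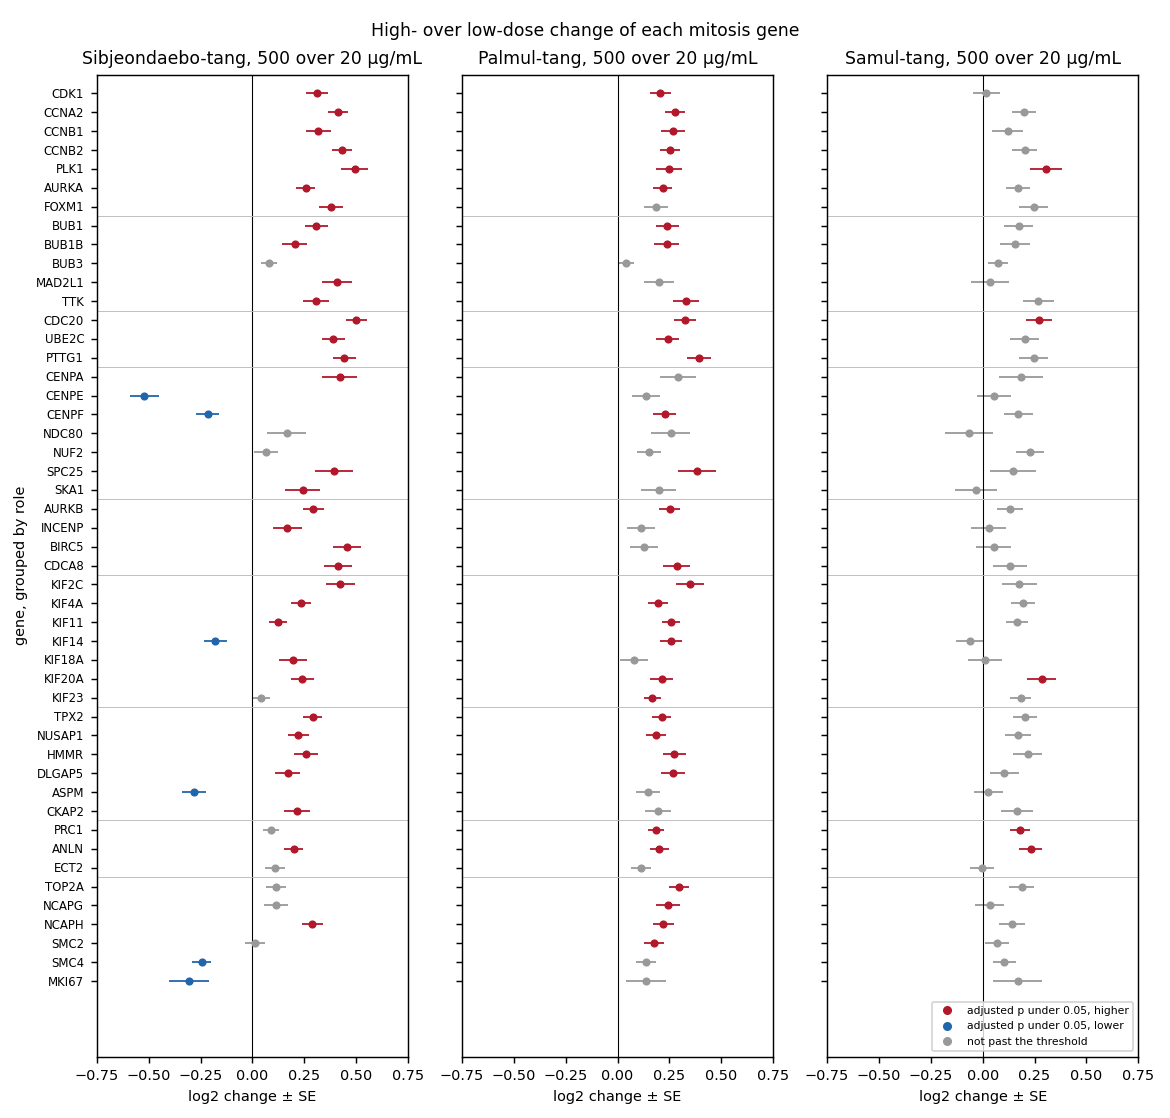
Log2 change of the high over the low dose, with its SE, for each of the 48 mitosis genes in Sibjeondaebo-tang, Palmul-tang and Samul-tang, with red (higher) or blue (lower) points for genes that passed the test and grey points for the rest. The points lie right of 0 for 42 members of the list with Sibjeondaebo-tang, 48 with Palmul-tang and 44 with Samul-tang, and the lowest point is CENPE in Sibjeondaebo-tang.

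Genes of mitotic entry rose together. All 7 members of this class were higher at the high dose of Sibjeondaebo-tang (all genes 18.5%), and 6 of 7 in Palmul-tang (1.46%). CCNB2, a mitotic cyclin, had 66.8, 67.2 and 62.3 CPM at the low Sibjeondaebo-tang dose, 77.8, 69.6 and 72.4 CPM at the medium dose and 90.2, 87.2 and 87.1 CPM at the high dose. Every high-dose library lay above every other library of the formula, and the change was 0.43 ± 0.0475 (adjusted p = 1.32e-08). In Palmul-tang CCNB2 had 69.6, 69.6 and 68.3 CPM at the low dose, 73.9, 73.7 and 71.8 CPM at the medium dose and 87.1, 78.7 and 81.6 CPM at the high dose, again without overlap between high and low, with a change of 0.25 ± 0.0473 (adjusted p = 0.000771). CCNA2, the cyclin that precedes cyclin B, had 72.6, 68.5 and 66.1 CPM at the high Sibjeondaebo-tang dose, against 54.8, 50.7 and 50.04 CPM at the low dose. The libraries did not overlap and the change was 0.41 ± 0.0477 (adjusted p = 3.42e-08), with 0.28 ± 0.0476 (adjusted p = 0.00027) in Palmul-tang.

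PLK1, the Polo-like kinase of spindle assembly, had 146, 152 and 138 CPM at the high Sibjeondaebo-tang dose, against 119, 97.2 and 93.9 CPM at the low dose. Low-dose replicate 1 stood above the other low-dose libraries but under all 3 high-dose libraries, and the change was 0.49 ± 0.0633 (adjusted p = 9.06e-07). The corresponding change in Palmul-tang was 0.25 ± 0.0631 (adjusted p = 0.0227), with 131, 138 and 121 CPM at the high dose against 113, 104 and 111 CPM at the low dose. FOXM1, a transcription factor of mitotic genes, had 138, 147 and 142 CPM at the high Sibjeondaebo-tang dose and 124, 104 and 101 CPM at the low dose. It showed the same high low-dose replicate 1 as PLK1, without overlap between the doses, and rose by 0.38 ± 0.0581 (adjusted p = 7.73e-06). FOXM1 was the member of the class that did not pass in Palmul-tang, at 0.19 ± 0.058 (adjusted p = 0.0713). CDK1, CCNB1 and the spindle kinase AURKA rose by 0.31, 0.32 and 0.26 in Sibjeondaebo-tang and by 0.21, 0.27 and 0.22 in Palmul-tang. CDK1 and PLK1 each lost the Palmul-tang call in 4 of the 6 fits that leave out 1 library of its high or low dose, CCNB1 and AURKA in 2.

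The destruction machinery of anaphase held the highest rise of all. CDC20, the activator of the anaphase-promoting complex, had 61.4, 60.5 and 60.1 CPM at the low Sibjeondaebo-tang dose, 69.6, 66.5 and 64.8 CPM at the medium dose and 90.1, 89.1 and 78.5 CPM at the high dose. Replicate 3 was the lowest of the high-dose libraries, yet all 3 lay above the medium dose, and the medium dose lay above the low dose. The change was 0.50 ± 0.0523 (adjusted p = 4.27e-09). In Palmul-tang CDC20 had 63.4, 62.5 and 56.3, then 68.4, 67.7 and 64.9, then 74.2, 76.0 and 78.1 CPM from the low to the high dose, also without overlap between any 2 doses, with a change of 0.33 ± 0.0523 (adjusted p = 0.000116). PTTG1, or securin, the inhibitor of the protease that parts sister chromatids, had 80.6, 83.0 and 78.5 CPM at the high dose and 62.2, 60.4 and 55.4 CPM at the low Sibjeondaebo-tang dose (0.44 ± 0.0564, adjusted p = 1.88e-07). It had the largest change of any member in Palmul-tang, with 86.2, 75.9 and 69.5 CPM at the high dose and 60.2, 57.1 and 59.2 CPM at the low dose (0.39 ± 0.0563, adjusted p = 2.27e-05). Neither formula had overlapping doses for PTTG1, although its high-dose libraries in Palmul-tang spread more widely. UBE2C, the ubiquitin-conjugating enzyme of the complex, rose by 0.39 ± 0.0567 (adjusted p = 1.82e-06) in Sibjeondaebo-tang and by 0.24 ± 0.0563 (adjusted p = 0.0084) in Palmul-tang, a call not made without Palmul-tang high replicate 1.

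**Figure D3:**
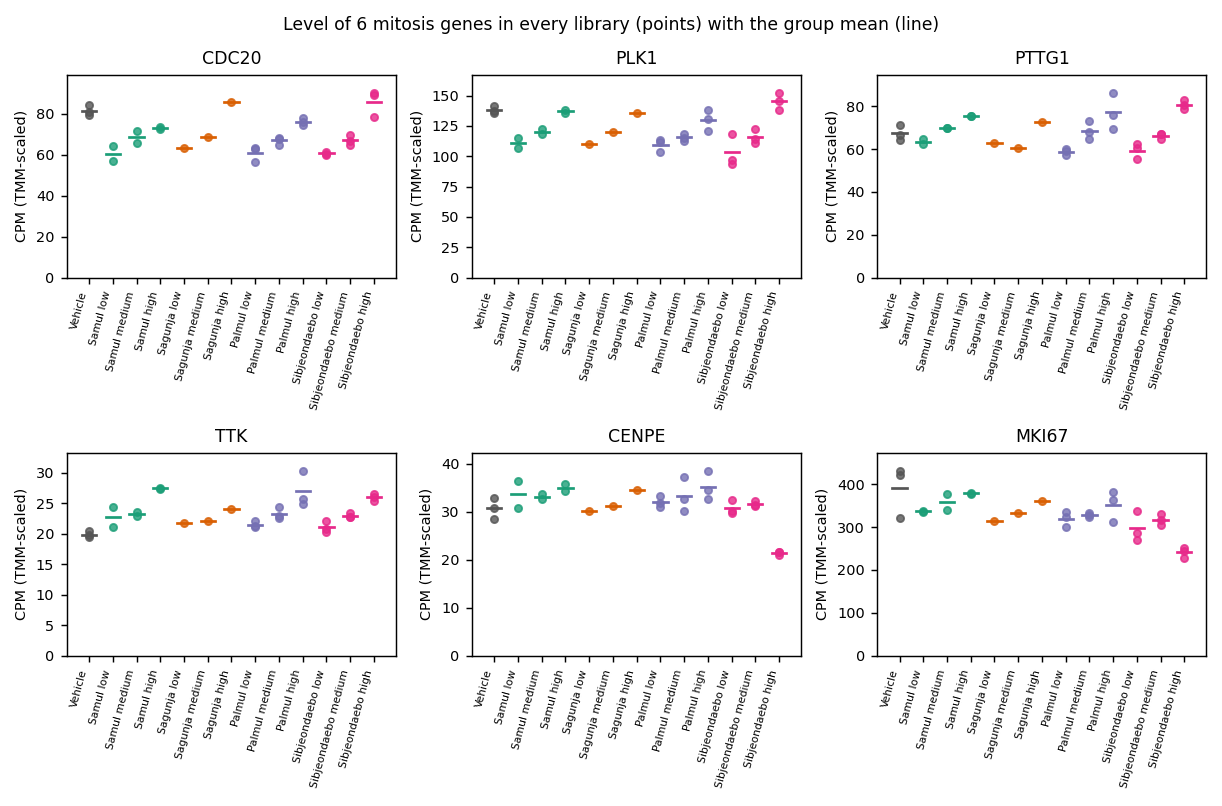
CPM of CDC20, PLK1, PTTG1, TTK, CENPE and MKI67 in each of the 30 libraries (points) with the group mean (line), by extract and dose, on axes that start at 0. The group means of CDC20, PLK1 and TTK step up with dose in all 4 formulas, and CENPE and MKI67 drop at the high dose of Sibjeondaebo-tang.

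Spindle checkpoint genes rose in 4 of 5 cases in Sibjeondaebo-tang (all genes 18.5%) and 3 of 5 in Palmul-tang (1.46%). MAD2L1, a core checkpoint inhibitor of CDC20, had 31.7, 31.04 and 29.6 CPM at the high Sibjeondaebo-tang dose and 21.4, 24.1 and 24.0 CPM at the low dose. The doses did not overlap, and the change was 0.41 ± 0.0728 (adjusted p = 3.83e-05). In Palmul-tang its high-dose libraries, at 28.1, 22.02 and 28.6 CPM, overlapped the low-dose libraries, at 22.8, 24.4 and 21.5 CPM, and the change of 0.20 ± 0.0733 (adjusted p = 0.15) did not pass. TTK, the kinase also called MPS1 that starts checkpoint signalling, had 25.4, 26.1 and 26.6 CPM at the high and 22.1, 20.7 and 20.2 CPM at the low Sibjeondaebo-tang dose (0.31 ± 0.0617, adjusted p = 0.000179). Its change in Palmul-tang was 0.33 ± 0.061 (adjusted p = 0.000708), with 30.2, 25.7 and 24.8 CPM at the high and 21.2, 21.1 and 21.999 CPM at the low dose. Neither formula had overlapping doses for TTK. The checkpoint kinase BUB1 rose by 0.31 and BUB1B, or BUBR1, by 0.20 in Sibjeondaebo-tang, and both by 0.24 in Palmul-tang. BUB1B was not called in Sibjeondaebo-tang without low replicate 3. In Palmul-tang the BUB1B call was not made in 3 of 13 other settings and the BUB1 call in 2. BUB3, their binding partner, changed by 0.08 in Sibjeondaebo-tang and 0.04 in Palmul-tang, and passed in neither.

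All 4 members of the chromosomal passenger complex, which corrects faulty attachments and then guides cytokinesis, were higher at the high dose of Sibjeondaebo-tang (all genes 18.5%). In Palmul-tang 2 of 4 were higher (1.46%). BIRC5, or survivin, had 122, 107 and 109 CPM at the high Sibjeondaebo-tang dose and 82.5, 80.9 and 83.4 CPM at the low dose, without overlap. Its change was 0.46 ± 0.0672 (adjusted p = 7.96e-06). In Palmul-tang BIRC5 had 91.0, 83.7 and 89.4 CPM at the high dose and 89.6, 78.8 and 73.5 CPM at the low dose, where the libraries overlapped and the change of 0.13 ± 0.0676 (adjusted p = 0.41) did not pass. CDCA8, or borealin, a scaffold of the complex, had 34.2, 32.7 and 32.2 CPM at the high and 25.6, 24.5 and 24.4 CPM at the low Sibjeondaebo-tang dose (0.41 ± 0.0656, adjusted p = 7.67e-06), with 0.29 ± 0.0654 (adjusted p = 0.0068) in Palmul-tang. The kinase of the complex, AURKB, rose by 0.29 ± 0.0504 (adjusted p = 2.26e-05) and by 0.25 ± 0.0505 (adjusted p = 0.0018) in the same formulas. INCENP, its activator, was just past the threshold in Sibjeondaebo-tang (0.17 ± 0.0677, adjusted p = 0.0491), was not called in 4 of the 6 fits that leave out 1 library of either dose, and did not pass in Palmul-tang (0.11). Those 4 left out high replicate 1 or 2 or low replicate 2 or 3. For CDCA8 the Palmul-tang call was not made in 4 of 13 other settings.

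The centromere and kinetochore genes split in Sibjeondaebo-tang, with 3 of 7 higher and 2 lower (all genes 18.5% and 19.9%). In Palmul-tang 2 of 7 were higher (1.46%). CENPE, a kinesin of the kinetochore that carries chromosomes to the spindle equator, had 32.4, 30.2 and 29.7 CPM at the low Sibjeondaebo-tang dose, 31.3, 32.3 and 31.4 CPM at the medium dose and 20.98, 21.6 and 21.6 CPM at the high dose. Low and medium libraries overlapped, and all 3 high-dose libraries lay far under both. The change was -0.52 ± 0.0709 (adjusted p = 6.26e-07), the deepest fall of any member. In Palmul-tang CENPE had 38.4, 34.5 and 32.7 CPM at the high dose and 33.2, 31.03 and 31.8 CPM at the low dose, with overlap and a change of 0.14 ± 0.0672 (adjusted p = 0.352). CENPF, a large protein of the outer kinetochore, had 107, 121 and 113 CPM at the high dose and 143, 124 and 130.2 CPM at the low Sibjeondaebo-tang dose. The doses did not overlap in either formula, but their order differed. The change was -0.22 ± 0.0571 (adjusted p = 0.00331) in Sibjeondaebo-tang, and 0.23 ± 0.0564 (adjusted p = 0.0161) in Palmul-tang, with 159.5, 167 and 148 CPM at the high and 139.8, 133 and 132 CPM at the low dose. The fall was not called without Sibjeondaebo-tang high replicate 1, and the rise was not called without Palmul-tang high replicate 1 or 2 or low replicate 2 or 3.

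CENPA, the histone variant that marks the centromere, had 20.7, 17.0 and 15.2 CPM at the high Sibjeondaebo-tang dose and 14.1, 12.3 and 13.04 CPM at the low dose. High-dose replicate 1 stood well above the others, the doses did not overlap, and the change was 0.42 ± 0.0851 (adjusted p = 0.000194). Palmul-tang gave 0.29 ± 0.086 (adjusted p = 0.052) for CENPA, which missed the threshold. SPC25, a subunit of the NDC80 complex that grips microtubules, had 9.90, 10.95 and 10.0 CPM at the high and 8.45, 8.70 and 6.28 CPM at the low Sibjeondaebo-tang dose, where low-dose replicate 3 was the lowest (0.39 ± 0.0912, adjusted p = 0.000818). It rose in Palmul-tang as well (0.38 ± 0.0903, adjusted p = 0.00916), though not without high replicate 1 or low replicate 3. The other subunits NDC80 and NUF2 changed by 0.16 and 0.06 in Sibjeondaebo-tang and by 0.26 and 0.15 in Palmul-tang, and passed in neither. SKA1, which holds kinetochores on shortening microtubules, rose by 0.24 ± 0.0836 (adjusted p = 0.0215) in Sibjeondaebo-tang, a call lost with DESeq2 and without high replicate 1 or low replicate 2.

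Mitotic kinesins, the motors that slide, cap and bundle spindle microtubules, were higher in 5 of 7 cases and lower in 1 in Sibjeondaebo-tang (all genes 18.5% and 19.9%). In Palmul-tang 6 of 7 were higher (1.46%). KIF2C, which dismantles wrongly attached microtubules, had 32.3, 32.7 and 27.6 CPM at the high Sibjeondaebo-tang dose and 22.9, 24.0 and 22.05 CPM at the low dose. The doses did not overlap, and the change was 0.42 ± 0.0688 (adjusted p = 1.04e-05), with 0.35 ± 0.0682 (adjusted p = 0.00133) in Palmul-tang. KIF14, a kinesin of late mitosis and cytokinesis, had 30.2, 30.4 and 30.9 CPM at the low Sibjeondaebo-tang dose, 34.4, 33.5 and 32.5 CPM at the medium dose and 26.6, 28.4 and 25.8 CPM at the high dose. It was thus highest at the medium dose and lowest at the high dose, with no overlap among the 3 doses. Its fall of -0.18 ± 0.0558 (adjusted p = 0.0112) was not called without high replicate 1 or high replicate 3. In Palmul-tang KIF14 had 37.4, 37.1 and 35.2 CPM at the high and 29.9, 32.2 and 29.6 CPM at the low dose and rose by 0.26 ± 0.0541 (adjusted p = 0.0029), without overlap. KIF4A, a motor of chromosome arms and the central spindle, rose by 0.23 and 0.19, and KIF11, which pushes spindle poles apart, by 0.12 and 0.26, in Sibjeondaebo-tang and Palmul-tang in that order. KIF4A had 50.3, 48.9 and 47.0 CPM at the high and 43.5, 40.1 and 40.7 CPM at the low Sibjeondaebo-tang dose, without overlap. KIF20A, a motor of the central spindle, rose by 0.24 and 0.21, a Palmul-tang call that 6 of 13 other settings did not make. KIF18A, which dampens chromosome movement, rose in Sibjeondaebo-tang (0.20), and KIF23, a subunit of centralspindlin, in Palmul-tang (0.17), while their changes of 0.08 and 0.04 in the other formula did not pass. Of 13 other settings, 5 did not make the KIF23 call in Palmul-tang and 3 the KIF4A call.

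Among spindle assembly proteins 5 of 6 were higher and 1 lower in Sibjeondaebo-tang (all genes 18.5% and 19.9%), and 4 of 6 were higher in Palmul-tang (1.46%). TPX2, which activates AURKA on the spindle, had 187, 192 and 179 CPM at the high Sibjeondaebo-tang dose and 163, 149.9 and 144 CPM at the low dose, without overlap. It rose by 0.29 ± 0.046 (adjusted p = 7.22e-06), and by 0.21 ± 0.0458 (adjusted p = 0.00367) in Palmul-tang. ASPM, a spindle pole protein, had 108, 106 and 101 CPM at the low Sibjeondaebo-tang dose, 113, 111 and 107 CPM at the medium dose and 86.1, 89.9 and 83.1 CPM at the high dose. The high-dose libraries lay under all others of the formula, and the change was -0.28 ± 0.0581 (adjusted p = 0.000294). In Palmul-tang ASPM had 131, 121 and 106 CPM at the high dose and 107, 108 and 109 CPM at the low dose, overlapping, with a change of 0.15 ± 0.0571 (adjusted p = 0.19). HMMR, a microtubule-binding protein of the spindle poles, rose by 0.26 and 0.27, NUSAP1, which bundles microtubules around chromosomes, by 0.22 and 0.19, and DLGAP5, which stabilises kinetochore fibres, by 0.17 and 0.27 in Sibjeondaebo-tang and Palmul-tang. HMMR had 35.4, 33.1 and 34.4 CPM at the high and 29.7, 28.9 and 27.6 CPM at the low Sibjeondaebo-tang dose, also without overlap. The NUSAP1 rise in Palmul-tang was not called in 5 of 13 other settings, and those of TPX2, HMMR and DLGAP5 in 1 each. CKAP2, another spindle microtubule protein, rose in Sibjeondaebo-tang (0.22) and missed the threshold in Palmul-tang (0.20 ± 0.0616, adjusted p = 0.0747).

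Of the 3 cytokinesis genes 1 was higher in Sibjeondaebo-tang (all genes 18.5%) and 2 in Palmul-tang (1.46%). ANLN, or anillin, which organises the contractile ring, had 118, 120.0 and 115 CPM at the high and 109, 99.3 and 99.0 CPM at the low Sibjeondaebo-tang dose (0.20 ± 0.0457, adjusted p = 0.000743), and 128, 128 and 113 CPM at the high and 106, 105 and 109.9 CPM at the low dose of Palmul-tang (0.20 ± 0.0455, adjusted p = 0.00632). High and low doses did not overlap in either. PRC1, which crosslinks the central spindle, rose in Palmul-tang by 0.18 ± 0.0387 (adjusted p = 0.00312) and missed the threshold in Sibjeondaebo-tang at 0.09 ± 0.0389 (adjusted p = 0.0721). ECT2, which switches on the GTPase of the contractile ring, changed by 0.11 and by 0.11 in Sibjeondaebo-tang and Palmul-tang, and passed in neither. Of 13 other settings, 4 did not make the ANLN call in Palmul-tang and 3 the PRC1 call.

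Of the 6 chromosome structure genes 1 was higher and 2 were lower in Sibjeondaebo-tang (all genes 18.5% and 19.9%), and 4 were higher and 0 lower in Palmul-tang (1.46% and 2.02%). SMC4, an ATPase core of condensin, had 159.8, 152 and 147 CPM at the low Sibjeondaebo-tang dose, 155, 159 and 153 CPM at the medium dose and 123, 123 and 139.7 CPM at the high dose. High-dose replicate 3 was above the other high-dose libraries but under every lower dose, and the change was -0.25 ± 0.0473 (adjusted p = 0.000105). In Palmul-tang SMC4 had 181, 172 and 164 CPM at the high and 159, 154 and 157 CPM at the low dose, with a change of 0.14 ± 0.0468 (adjusted p = 0.11) that did not pass. MKI67, the surfactant of mitotic chromosomes and the source of the Ki-67 proliferation marker, had 337, 287 and 269 CPM at the low Sibjeondaebo-tang dose, 329.7, 315 and 305 CPM at the medium dose and 228, 251 and 244 CPM at the high dose. The high dose lay under both other doses, while the low-dose libraries spread widely. The change of -0.31 ± 0.0972 (adjusted p = 0.018) was not called without high replicate 1, high replicate 3 or low replicate 1, nor with no filter on low counts.

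TOP2A, the topoisomerase that untangles sister chromatids, had 349, 324 and 328 CPM at the high dose of Palmul-tang and 287, 273 and 255 CPM at the low dose, without overlap, and rose by 0.30 ± 0.0496 (adjusted p = 0.00021). In Sibjeondaebo-tang it had 306, 298 and 284 CPM at the high and 276, 271 and 274 CPM at the low dose, also without overlap, and the change of 0.11 ± 0.0497 (adjusted p = 0.0721) missed the threshold. The condensin subunit NCAPH rose by 0.29 ± 0.0516 (adjusted p = 3.93e-05) in Sibjeondaebo-tang and by 0.22 ± 0.0511 (adjusted p = 0.00767) in Palmul-tang. NCAPH had 40.8, 38.8 and 37.7 CPM at the high and 33.0, 32.0 and 30.97 CPM at the low Sibjeondaebo-tang dose, without overlap. Its partners NCAPG and SMC2 changed by 0.11 and 0.01 in Sibjeondaebo-tang without passing, and rose by 0.24 and 0.17 in Palmul-tang. The SMC2 rise in Palmul-tang was not called in 6 of 13 other settings and the NCAPG rise in 2. The NCAPH rise in Palmul-tang was not called without high replicate 1 or in a fit of the 2 doses alone.

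The changes in Sibjeondaebo-tang and Palmul-tang were set side by side, from tests that share no library but do share 1 estimate of the spread. The 25 members higher in both make up 75.8% of the 33 higher in Sibjeondaebo-tang and 78.1% of the 32 higher in Palmul-tang, where 66.7% of all 48 members were higher in Palmul-tang and 68.8% in Sibjeondaebo-tang. CENPF and KIF14 were lower in the first formula and higher in the second, and 4 members (NDC80, NUF2, ECT2 and BUB3) were called in neither. A further 8 members were higher in Sibjeondaebo-tang and not called in Palmul-tang, and 5 (KIF23, NCAPG, PRC1, SMC2 and TOP2A) were higher in Palmul-tang and not called in Sibjeondaebo-tang. The difference between the changes in the 2 formulas was tested for each gene, and of these 13 members only BIRC5 passed it, at 0.33 ± 0.0953 (adjusted p = 0.02).

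In Samul-tang 5 of the 48 members passed at the high over the low dose, all higher, where 0.604% of all genes were higher and 0.74% lower. They were PLK1 (0.30), KIF20A (0.28), CDC20 (0.27), ANLN (0.23) and PRC1 (0.18). CDC20 had 64.3 and 56.9 CPM at the low dose of Samul-tang, 71.6 and 65.6 CPM at the medium dose and 73.7 and 72.4 CPM at the high dose, and its change was 0.27 ± 0.0646 (adjusted p = 0.0234). PLK1 had 138 and 136 CPM at the high and 115 and 107 CPM at the low dose (0.30 ± 0.0774, adjusted p = 0.0453). Neither gene overlapped between high and low. Such separation is common with so few libraries: 38 members were higher and 1 lower without overlap, where 3978 and 3990 of all 17701 genes were. With 2 libraries a dose, 27 members were higher and 0 lower at an unadjusted p under 0.05. Of all 17701 genes, 1179 were higher and 1277 lower at that threshold. The median change was 0.168 against -0.002 for all genes, and 44 of 48 changes were positive. TTK, with 27.4 and 27.4 CPM at the high and 21.1 and 24.3 CPM at the low dose, changed by 0.27 ± 0.0748 (adjusted p = 0.0631) without passing. Leaving out any 1 of the 4 Samul-tang libraries left 0 or 1 call: 1 without low replicate 2, and 0 without high replicate 2, high replicate 3 or low replicate 3. A fit without the 3 high-dose libraries of Sibjeondaebo-tang called 3. Higher calls over all genes came to 69, 24, 45 and 22 in the leave-out fits, in the order named, and to 86 in the last fit, against 107.

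Sagunja-tang had 1 library per dose, so its values have no replicate check and no test. The high-dose library was above the low-dose library in 45 of 48 members, with a median log2 ratio of 0.170 and a range from -0.020 to 0.434, against a median of 0.004 over all genes. Of the members 18 lay above 0.2 and 0 below -0.2, where 15.9% of all genes lay above 0.2 and 17.5% below -0.2. CDC20 had 63.3 CPM at the low dose, 68.8 CPM at the medium dose and 85.5 CPM at the high dose, the largest ratio of any member. SKA1 had 7.43, 7.91 and 9.74 CPM and NCAPH had 32.2, 36.1 and 42.2 CPM over the same doses. CENPE, at 34.5 CPM at the high and 30.2 CPM at the low dose, and MKI67, at 360.0 CPM at the high and 314 CPM at the low dose, were both above their low-dose level here.

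Medium doses moved the members by less. No member passed between medium and low dose in Sibjeondaebo-tang, Palmul-tang or Samul-tang with edgeR, where 0.0113%, 0.00565% and 0% of all genes passed in either direction. At an unadjusted p under 0.05, 25, 19 and 5 members were higher and 0 lower in the same formulas. Of all 17701 genes, 500, 360 and 466 were higher and 608, 381 and 522 lower at that threshold. DESeq2 called 1 member, in Sibjeondaebo-tang, where edgeR called 2 without low replicate 1. Median changes were 0.124, 0.101 and 0.078, and 48, 47 and 38 of the 48 members had a positive change. The 6 members that were lower at the high dose of Sibjeondaebo-tang were among the 48 with a positive change at its medium dose. KIF14 changed by 0.13 there, CENPE by 0.04 and MKI67 by 0.09.

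The high doses of Sibjeondaebo-tang and Palmul-tang were also compared directly. Here 4 members were higher in Sibjeondaebo-tang and 11 lower, where 14.3% of all genes were higher and 16% lower, and the members' median difference was -0.001. The lowest was CENPE, with 20.98, 21.6 and 21.6 CPM in Sibjeondaebo-tang against 38.4, 34.5 and 32.7 CPM in Palmul-tang (-0.72 ± 0.0706, adjusted p = 2.71e-09). MKI67 had 228, 251 and 244 CPM against 363, 381 and 311 CPM (-0.55 ± 0.0973, adjusted p = 0.00028). No library of Sibjeondaebo-tang reached the lowest of Palmul-tang for either gene. CENPF, ASPM, KIF14 and SMC4 were lower, at -0.47, -0.47, -0.44 and -0.42, each also without overlap. In this comparison 7 members were higher and 13 lower without overlap, where 3388 and 3851 of all 17701 genes were. SMC2, KIF23, NUF2, TOP2A and PRC1 were lower, at -0.19 to -0.12. The NUF2 call was not made in 7 of 12 other settings and the PRC1 call in 5.

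The 4 members higher in Sibjeondaebo-tang than in Palmul-tang at the high dose were BIRC5, MAD2L1, CDC20 and CDK1. BIRC5 had 122, 107 and 109 CPM in Sibjeondaebo-tang and 91.0, 83.7 and 89.4 CPM in Palmul-tang (0.36 ± 0.0672, adjusted p = 0.000223), without overlap. CDC20 had 90.1, 89.1 and 78.5 CPM in Sibjeondaebo-tang and 74.2, 76.0 and 78.1 CPM in Palmul-tang (0.17 ± 0.0518, adjusted p = 0.0105), where replicate 3 of Sibjeondaebo-tang lay just above the highest Palmul-tang library. MAD2L1 differed by 0.23 ± 0.0724 (adjusted p = 0.0172) and was not called without Palmul-tang high replicate 2 or in a fit of the 2 groups alone. CDK1 differed by 0.14 ± 0.0525 (adjusted p = 0.0462) and was not called in 5 of 12 other settings. Without Sibjeondaebo-tang high replicate 3 the higher calls came to 7, and over all genes to 2686, against 2531. The class of entry genes as a whole had a median difference of 0.1, with 1 of 7 called, and chromosome structure genes one of -0.18, with 4 of 6 lower.

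The change from low to high dose itself differed between Sibjeondaebo-tang and Palmul-tang for 7 members, 1 with a larger and 6 with a smaller change in Sibjeondaebo-tang, where 5.59% of all genes were in the first group and 9.29% in the second. The 6 were CENPE (-0.66 ± 0.0977, adjusted p = 1.28e-05), KIF14 (-0.44 ± 0.0777, adjusted p = 0.000168), CENPF (-0.44 ± 0.0803, adjusted p = 0.000272), ASPM (-0.43 ± 0.0815, adjusted p = 0.000483), SMC4 (-0.38 ± 0.0665, adjusted p = 0.000123) and MKI67 (-0.44 ± 0.137, adjusted p = 0.035). They are the same 6 members that were lower at the high than at the low dose of Sibjeondaebo-tang. Both tests use those libraries, so the match is not separate evidence. Without Palmul-tang low replicate 1 or high replicate 2, BIRC5 was not called. The count of members with a larger change in Sibjeondaebo-tang came to 4 without its high replicate 3, 3 without its low replicate 1, 2 without its high replicate 2 or without Palmul-tang high replicate 1, low replicate 2 or low replicate 3, and 0 without Palmul-tang low replicate 1. For the other 41 members the difference between the 2 changes did not pass, which does not show that they changed alike.

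The members that were lower in Sibjeondaebo-tang are among those with the longest coding sequence. The coding length, from the annotation, of the 6 lower members had a median of 8722 bases and ran from 3864 (SMC4) through 4944 (KIF14) and 8103 (CENPE) to 10431 (ASPM). The 33 higher members had a median of 1809 bases, from 420 (CENPA) to 3696, and the 9 not called a median of 2742. Across the 48 members the Spearman correlation of the high-over-low change with coding length was -0.727 for Sibjeondaebo-tang, -0.277 for Palmul-tang and -0.088 for Samul-tang. Across 13831 tested coding genes it was -0.294, -0.112 and -0.084 for the same formulas. With transcript length the members' correlations were -0.738, -0.478 and -0.292, against -0.279, -0.131 and -0.128 over all these genes. With transcript GC content the members' correlation was 0.546 for Sibjeondaebo-tang, against 0.165 over all these genes. Genes of 1 library set are not independent of each other, so these are descriptions without a test.

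The same gradient was present over all coding genes at the high dose of Sibjeondaebo-tang. The median change of genes with up to 1000 coding bases was 0.121, and the 10 members in that bin had 0.402. For over 2000 and up to 3000 bases the medians were -0.024 over all genes and 0.24 over 13 members, and for over 3000 and up to 4000 bases -0.081 and 0.162 over 8 members. Over 7000 bases 54.4% of 270 genes were lower and 3.33% higher, with a median of -0.231, and all 4 members there (CENPE, CENPF, MKI67 and ASPM) were lower, with a median of -0.294. In Palmul-tang the medians over all genes ran from 0.024 in the shortest bin to -0.043 in the longest, and the 4 longest members had 0.142. The scaling factors of the high-dose libraries of Sibjeondaebo-tang were the lowest of all, from 0.923 to 0.936. Each library has 1 factor for all its genes, so this scaling shifts the changes of all lengths alike. What lies behind the gradient was not tested.

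**Figure D4:**
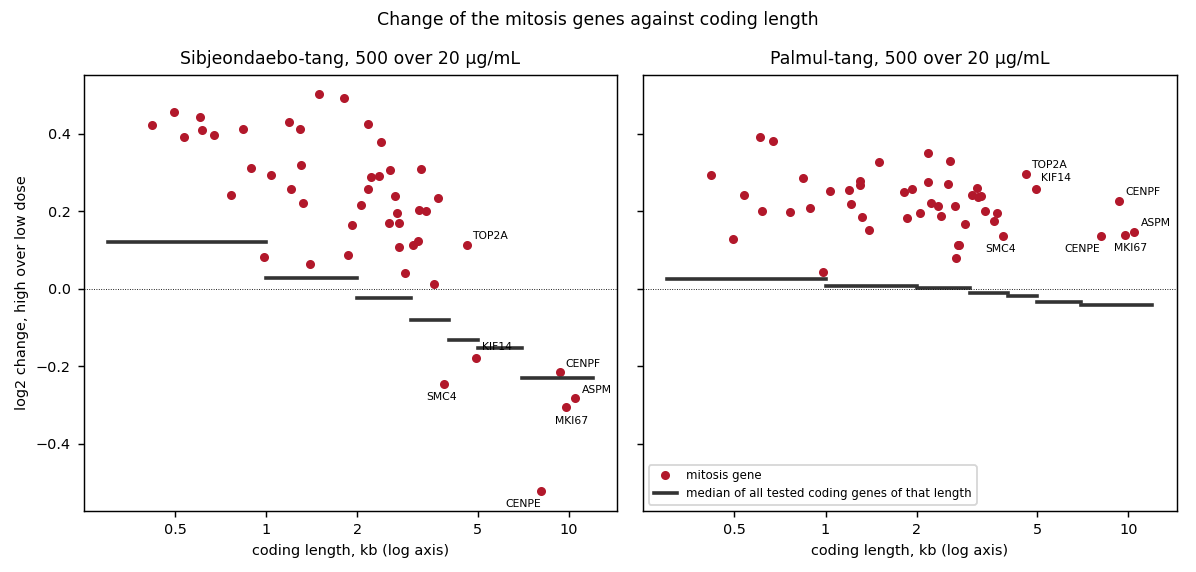
Log2 change of the high over the low dose against coding length (kb, log axis) for the 48 mitosis genes, in Sibjeondaebo-tang and in Palmul-tang, with the median of all tested coding genes of each length bin as a horizontal bar. In Sibjeondaebo-tang members fall away with length and the 4 over 7000 bases lie under 0, whereas in Palmul-tang all 48 lie above 0.

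Against vehicle the members did not move as a block. At the high dose, 20 members were higher and 6 lower in Sibjeondaebo-tang (all genes 20% and 21.8%), 30 higher and 4 lower in Palmul-tang (19% and 18.1%), and 21 higher and 4 lower in Samul-tang (15.3% and 13.9%). At the low dose 3 were higher and 20 lower in Sibjeondaebo-tang (18.6% and 18.2%), 4 higher and 15 lower in Palmul-tang (18.2% and 17.8%), and 8 higher and 10 lower in Samul-tang (15.6% and 15.1%). These 6 comparisons share the 3 vehicle libraries, and what sets those libraries apart over all genes cannot be told apart from the lack of an extract. The lower sum of epithelial markers in the extract libraries moved with these comparisons, and its part was not tested. Without vehicle replicate 1, the lower calls came to 2 at the high dose of Palmul-tang, and the higher calls to 1 at the low Sibjeondaebo-tang dose and 5 at the low dose of Samul-tang. Over all genes the same calls came to 2530, 2656 and 2169, against 3208, 3297 and 2753. Without Samul-tang low replicate 3 its low dose kept 2 higher and 5 lower calls. Without Samul-tang high replicate 3 its high dose had 1 lower call. Higher calls at the low dose also came to 2 in Palmul-tang without vehicle replicate 2, and in Sibjeondaebo-tang to 5 without vehicle replicate 3 and 1 without its own replicate 1.

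CDC20 had 79.4, 84.1 and 80.9 CPM in vehicle, above every low- and medium-dose library of any extract. It was lower than vehicle at the low dose of Sibjeondaebo-tang (-0.43 ± 0.0524, adjusted p = 1.92e-07), Palmul-tang (-0.42 ± 0.0526, adjusted p = 2.5e-07) and Samul-tang (-0.43 ± 0.0595, adjusted p = 3.11e-06). At the high dose the differences were 0.08, -0.10 and -0.16 in the same formulas, and the last of them passed. FOXM1, with 153, 143 and 146 CPM in vehicle, was lower, at -0.43, -0.35 and -0.34 at the low doses, and among the high doses passed in Palmul-tang (-0.17 ± 0.0579, adjusted p = 0.0248). AURKB had 61.9, 60.5 and 57.9 CPM in vehicle, and each extract library was under all of them. It differed by -0.18 ± 0.0501 (adjusted p = 0.00481), -0.26 ± 0.0499 (adjusted p = 0.000124) and -0.30 ± 0.0563 (adjusted p = 0.000162) at the high doses of Sibjeondaebo-tang, Palmul-tang and Samul-tang. INCENP differed by -0.24, -0.23 and -0.33 in the same groups.

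Other members stood above vehicle. ECT2 had 69.9, 74.4 and 81.1 CPM in vehicle, under every extract library. It differed by 0.33 ± 0.0483 (adjusted p = 1.17e-06), 0.36 ± 0.048 (adjusted p = 7.87e-07) and 0.25 ± 0.0536 (adjusted p = 0.000686) at the high doses, and by 0.22, 0.24 and 0.25 at the low doses of Sibjeondaebo-tang, Palmul-tang and Samul-tang. TTK, at 19.4, 20.4 and 19.7 CPM in vehicle, differed by 0.39, 0.44 and 0.46 at the high doses. MKI67, at 421, 320.1 and 429.6 CPM in vehicle, where replicate 2 was far under the others, was lower at the high dose of Sibjeondaebo-tang (-0.70 ± 0.0975, adjusted p = 9.83e-06). At the high doses of Palmul-tang and Samul-tang it differed by -0.15 and -0.04 without passing.

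**Figure D5:**
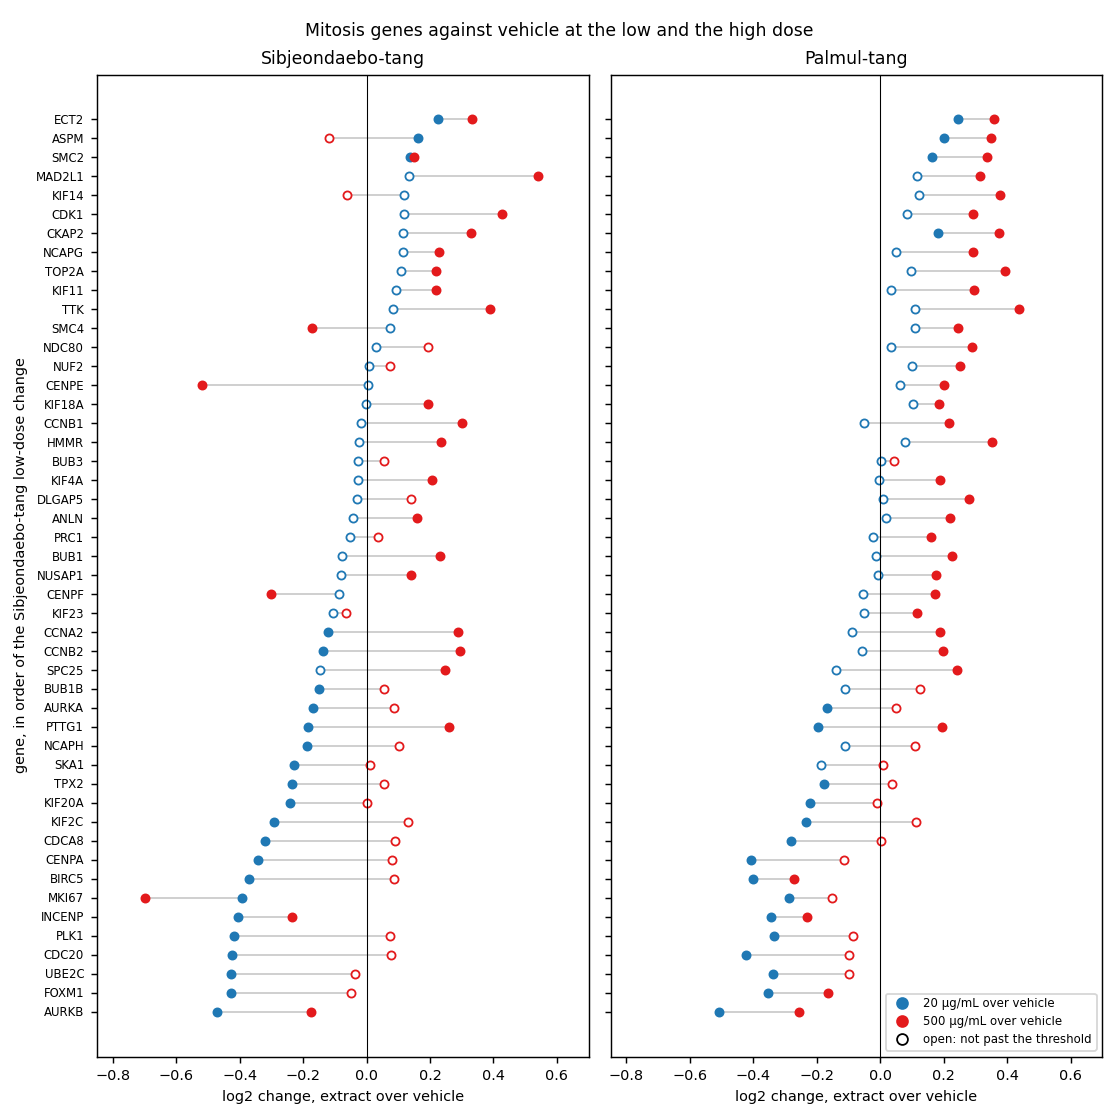
Log2 change against vehicle of each of the 48 mitosis genes at the low dose (20 µg/mL, blue) and the high dose (500 µg/mL, red) of Sibjeondaebo-tang and Palmul-tang, with open points for genes that did not pass the test. The red point lies right of the blue point for 42 members in Sibjeondaebo-tang and 48 in Palmul-tang, and CDC20, FOXM1 and AURKB lie left of 0 at the low dose in both panels.

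Other genes of the cell cycle were counted at the high over the low dose, where 18.5% of all genes were higher and 19.9% lower in Sibjeondaebo-tang, and 1.46% and 2.02% in Palmul-tang. Of 84 other mitosis genes 42 were higher and 5 lower in Sibjeondaebo-tang, with a median change of 0.145, and 21 were higher and 0 lower in Palmul-tang, with a median of 0.161. In Samul-tang, where 0.604% of all genes were higher and 0.74% lower, 1 of the 84 passed. It was HJURP (0.29 ± 0.061), the chaperone that loads CENPA. In Sibjeondaebo-tang the genes with the smallest p-values included TACC3 (0.38 ± 0.0491), which crosslinks spindle microtubules, and RACGAP1 (0.32 ± 0.0428), the partner of KIF23, which rose, and KNTC1 (-0.61 ± 0.0487), which brings dynein to the kinetochore, and CENPT (-0.47 ± 0.0618), a centromere scaffold, which fell. Of 40 DNA replication genes 28 were higher and 3 lower in Sibjeondaebo-tang, with a median of 0.256, and 14 higher and 0 lower in Palmul-tang, with a median of 0.157. TK1, thymidine kinase, rose by 0.51 ± 0.0517 in Sibjeondaebo-tang.

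Of 19 regulators of mitotic gene transcription 6 were higher, 1 was lower and 12 were not called at the high dose of Sibjeondaebo-tang, with a median of 0.03, beside the same 18.5% and 19.9% of all genes. MYBL2, the activator of the late cell cycle genes, rose by 0.51 ± 0.0709, and RBL2, a pocket protein of the DREAM repressor, fell (-0.25 ± 0.05). CDKN1A, the p21 inhibitor of cyclin-dependent kinases, rose by 0.27 ± 0.045. In Palmul-tang 1 of the 19 was called (all genes 1.46% higher and 2.02% lower), E2F7, a repressor of the E2F family, at 0.23 ± 0.0641. In Samul-tang 1 of the 19 was called (all genes 0.604% higher and 0.74% lower), MYBL2, at 0.40 ± 0.0874.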

How the data were processed

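RNA of A549 cells was sequenced as 100 bp paired reads, and the authors deposited estimated counts per gene. Per the submitters' processing notes, the tools were FastQC 0.11.9, Trim Galore 0.6.5, STAR 2.7.3a and RSEM 1.3.3, with the build GRCh38 (hg38). The annotation release and the strand setting are not given in the sources used here, so reads of overlapping genes on opposite strands may not be separated. The deposited table has 240 columns of other samples, which were not used. In the 30 columns used, 8.50 to 9.82% of all values, zeros included, were not whole, and expected counts were rounded before the test.

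Library totals ran from 23986637 to 35159898 counts. The 30 libraries were fitted together in R 4.3.3 with edgeR 4.0.16 (TMM scaling, filterByExpr by group, robust quasi-likelihood F test, 13 group means, 17 residual degrees of freedom), so that the groups share 1 estimate of the spread. Benjamini-Hochberg adjustment ran over 17701 genes, with a threshold of 0.05. The SE is the size of the log2 change divided by the square root of F. Titles do not say whether replicates were separate cultures, so p-values measure no more than the spread from library to library, which may be technical. On simulated counts for 17701 genes, changes of 0.2, 0.4 and 0.8 on the log2 scale were put into 68, 64 and 68 genes drawn at random from all levels. The fit recovered 13.2%, 50% and 76.5% with the libraries of Palmul-tang and 4.4%, 34.4% and 73.5% with those of Samul-tang. All other genes were left unchanged, so an adjusted p was harder to pass than in the data. These shares therefore do not measure how well changes of the members were recovered.

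The members and gene lists were chosen with earlier results of these data known. Full statistics were given for up to 4 members of each role with the smallest adjusted p in Sibjeondaebo-tang high over low, and other members were named with fewer values. Coding lengths are from GENCODE 29 (GRCh38) and promoters from RefSeq (GRCh38.p14). Over all tested genes, the deviations from group means of same-numbered libraries had a median correlation of 0.00614 over 111 pairs, and 0 pairs were over 0.1. These correlations weigh all genes alike, low counts included, and cannot exclude a pairing by replicate number. With that number as a block, calls between high and low dose over all genes came to 320 higher and 423 lower in Palmul-tang, against 258 and 357. In Samul-tang they came to 157 and 216, against 107 and 131. The summed level of the members was highest in replicate 1 and lowest in replicate 3 in all 6 extract groups with 3 libraries. Alternatives were DESeq2 1.42.0, RLE scaling, no filter on low counts, fits of the compared groups alone, the replicate number as a block, and leaving out each library. Fits without the Sibjeondaebo-tang high or the vehicle libraries were added after seeing the data.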

Additional observations from a re-analysis of the deposited data

Results flagged for a closer look

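The high-minus-low change differed between Sibjeondaebo-tang and Palmul-tang for 7 mitosis genes in edgeR's test of the difference itself, each over 12 libraries. It was smaller in Sibjeondaebo-tang for CENPE (-0.66 ± 0.0977, adjusted p = 1.28e-05), SMC4 (-0.38 ± 0.0665, adjusted p = 0.000123), KIF14 (-0.44 ± 0.0777, adjusted p = 0.000168), CENPF (-0.44 ± 0.0803, adjusted p = 0.000272) and ASPM (-0.43 ± 0.0815, adjusted p = 0.000483), and these passed in all 18 other settings tried. MKI67 differed by -0.44 ± 0.137 (adjusted p = 0.035), which passed in 9 of the 18. BIRC5 had the larger change in Sibjeondaebo-tang (0.33 ± 0.0953, adjusted p = 0.02), which did not pass without Palmul-tang low replicate 1 or high replicate 2.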

How the results depend on the processing

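No member called in an edgeR comparison of high with low doses, or of the 2 formulas, changed direction in any alternative: 1104 member values kept their call and 141 lost it. Higher calls between high and low doses of Samul-tang came to 10 with no filter on low counts, 10 with the replicate number as a block, 8 in a fit of those groups alone, 9 with DESeq2 and 3 without the Sibjeondaebo-tang high libraries, against 5. Over all genes they came to 230, 157, 211, 165 and 86 in the same order, against 107. With no filter, higher calls came to 7 for Sibjeondaebo-tang over Palmul-tang at the high dose, against 4, and to 5 for the difference of their changes, against 1, where DESeq2 gave 2. Over all genes these were 3128 against 2531, and 1463 against 989, where DESeq2 gave 1039. For Sibjeondaebo-tang medium over low, no filter, the block and DESeq2 each gave 1, against 0, and for its low dose over vehicle a fit of those groups alone gave 1, against 3. The replicate block changed no other count by more than 1.5 times. Leaving out each library gave 29 to 37 higher and 3 to 6 lower calls for Sibjeondaebo-tang high over low, 12 to 33 higher for Palmul-tang, 0 to 1 for Samul-tang and 0 to 2 for Sibjeondaebo-tang medium over low. Over all genes the ranges were 2791 to 3434 higher and 2620 to 3247 lower, then 123 to 228, 22 to 69 and 0 to 6 higher. For Sibjeondaebo-tang over Palmul-tang it gave 3 to 7 higher and 8 to 12 lower, and for the difference 0 to 4 higher and 5 to 6 lower. Against vehicle the ranges were 17 to 21 higher and 4 to 7 lower (Sibjeondaebo-tang high), 22 to 31 and 2 to 5 (Palmul-tang high), 14 to 23 and 1 to 3 (Samul-tang high), 1 to 5 and 15 to 20 (Sibjeondaebo-tang low), 2 to 6 and 13 to 15 (Palmul-tang low), and 2 to 9 and 5 to 11 (Samul-tang low). The cause was not tested.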
